A study of Rattus norvegicus with 34 samples.

Results

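The dynein, kinesin and tubulin genes of rat testis were followed through 6 fungicide exposures. They were taken by gene symbol, as every probe set annotated to a single symbol beginning with Dnah, Dnai, Dnal, Dync, Dynl, Kif, Tuba, Tubb or Tubg, without Tubb3. The rule found 106 probe sets of 70 genes, out of 31042 probe sets of 14217 genes measured. Besides motors it takes in the gamma tubulin complex (Tubgcp), the kinesin-associated Kifap3 and the kinesin-binding Kifbp. A further 10 probe sets matched through 1 of several symbols and were not named.

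Male Wistar Han rats received feed with 1 of 3 triazole fungicides between gestation day 6 and postnatal day 92, and testis RNA of each animal was hybridised to 1 Affymetrix rat genome array. The 31 arrays with values fell into M500 and M2000 (myclobutanil at 500 and 2000 ppm, 3 and 5 arrays), P500 and P2500 (propiconazole at 500 and 2500 ppm, 4 and 5), T500 and T1800 (triadimefon at 500 and 1800 ppm, 4 each) and Control (0 ppm, 6). Of the 34 arrays labelled, 3 (M500 replicate 03, T1800 replicate 01, Control replicate 01) were dropped by the study, per the labels, and are not analysed here. The litters of the animals are not given in the sources used here, so p-values measure the spread between animals that may share a litter.

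Dyneins and kinesins are motors that walk along microtubules, which are hollow rods built from pairs of alpha and beta tubulin and started from gamma tubulin. In testis the axonemal dyneins form the arms that bend the sperm tail, and cytoplasmic dynein-2 and kinesin-2 carry cargo along the growing flagellum. Cytoplasmic dynein-1 and many kinesins serve the spindles of dividing germ cells, the manchette that shapes the spermatid head, and the microtubule tracks of Sertoli cells.

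The deposited values are scores on a log-like scale of unknown base, with every array centred near 0. Differences are therefore given in score units after quantile normalization, and no fold is given. The labelled tissue matched its spermatid markers: the mean of the 11 measured was 3.49 to 3.81 on Control arrays. Among them the protamine Prm1 had the highest Control score of all probe sets (4.66). The 9 Sertoli cell markers measured ran from 3.15 (Clu) to -0.13 (Amh), with a mean of 0.989 to 1.105 on Control arrays. Efferent-duct ciliated cells also make axonemal dyneins, and of their list 7 of 10 markers were measured. In Control, Deup1 scored 2.77, Ccno 1.35, Foxj1, their ciliary regulator, 1.08 and Muc1 0.997. The other markers scored lower, Krt18 at 0.068, Tppp3 at -0.092 and Krt8 at -0.158, at percentiles 54.4, 39.2 and 31.5 of all probe sets. The list's mean lay between 0.733 and 0.929 on every array. There were 5 arrays that stood apart by a wide actin gap, the score of the 3' beta-actin control probe set minus that of the 5' one. It exceeded 1.4 on M500 replicate 04 (1.60), M2000 replicate 05 (1.47), P2500 replicate 05 (1.47), Control replicate 02 (1.67) and Control replicate 06 (1.63), and lay between 0.704 and 1.33 on the other 26. In P2500, liver transcripts scored high on 3 of 5 arrays (list median 1.75 over the group, against at most 0.34 in Control). Testis RNA was measured in bulk, so fewer cells of a type and less RNA per cell cannot be told apart.

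Many of these probe sets scored among the brightest on the array in Control testis. Of the 106, 35 (33%) lay in the top 10% of Control means, and 42 (39.6%, against 13% of all) lay above bioB, the least concentrated hybridisation control. Without the 2 Control arrays of wide actin gap, 34 lay in the top 10%, 33 of them the same probe sets. A score depends on how well a probe set hybridises, so these ranks order probe sets and not amounts of transcript.

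**Figure D1:**
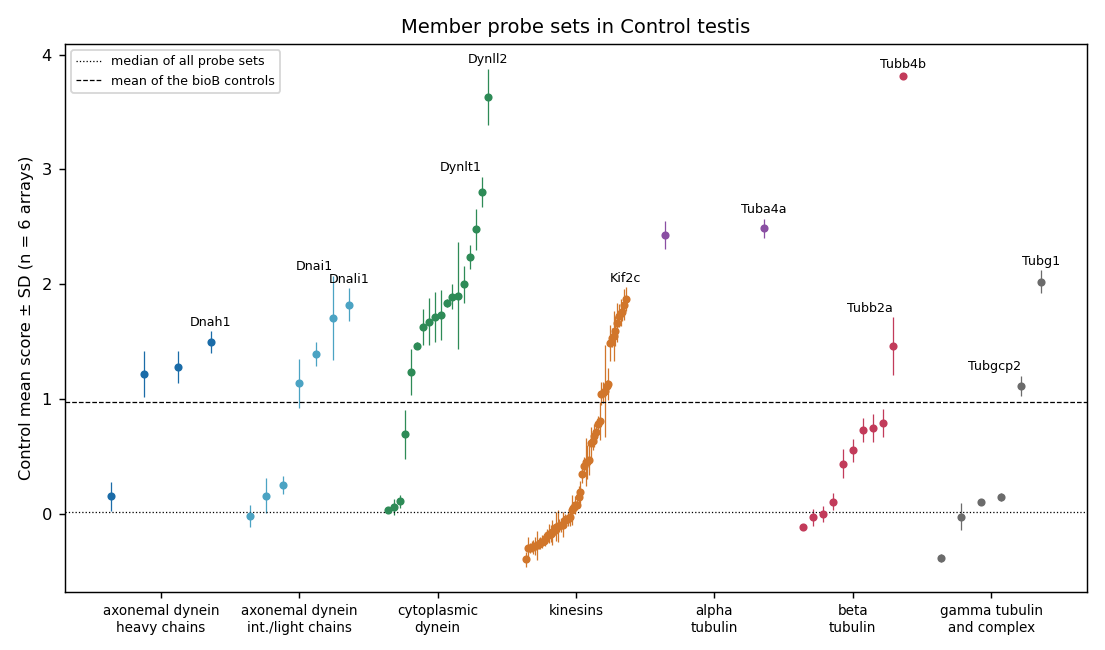
Control mean score of each of the 106 probe sets (points) with its SD over 6 arrays (bars), by family and in rising order within each. The dotted line is the median of all probe sets and the dashed line the mean of the bioB controls. Cytoplasmic dynein has 14 of 18 probe sets above the dashed line, while most of the 58 kinesin probe sets lie below it.

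The axonemal dynein heavy chains, the force-producing subunits of the arms, had 4 probe sets, 3 of them in the top 10%. Dnah1 averaged 1.49 ± 0.096, Dnah2 1.28 ± 0.14 and Dnah7 1.22 ± 0.20 (SD, n = 6), all inner-arm chains. Dnah17, an outer-arm chain of the sperm tail, averaged 0.15 ± 0.13, below bioB. Among the smaller arm subunits, Dnali1 of the inner arm averaged 1.82 ± 0.14, Dnai7 1.39 ± 0.10 and Dnal1, an outer-arm light chain, 1.14 ± 0.21.

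Dnai1, an outer-arm intermediate chain, was the least even of the arm subunits. Its 6 Control arrays scored 1.15, 1.38, 1.75, 1.91, 1.94 and 2.11 (mean 1.71 ± 0.37). Single arrays as low as 1.25 occurred in M500 and M2000, with 1.23 in T500 and 1.29 in T1800, whereas the 4 P500 arrays lay between 1.77 and 1.82 and the 5 P2500 arrays between 1.68 and 1.77. Its slope on the actin gap missed the threshold (adjusted p = 0.0856, limma).

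Cytoplasmic dynein had 14 of 18 probe sets (77.8%) in the top 10% and 18 of 18 above 0, and only the 2 alpha tubulin probe sets, both in the top 10%, formed a family placed higher by its median. The light chains led: Dynll2, of the LC8 type, averaged 3.63 ± 0.25, Dynlt1, of the Tctex type, 2.80 ± 0.13, and Dynlrb2, of the roadblock type, 2.48 ± 0.18. The dynein-2 subunits, which carry material back along the flagellum, were graded: the light intermediate chain Dync2li1 averaged 2.24 ± 0.10, the intermediate chain Dync2i1 2.00 ± 0.16, the heavy chain Dync2h1 1.83 ± 0.033 and the second intermediate chain Dync2i2 1.63 ± 0.16. The dynein-1 heavy chain Dync1h1 averaged 1.89 ± 0.11. Dynlt3, another Tctex-type light chain, was lowest by gene at 0.061 ± 0.068.

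The kinesins, with 58 probe sets of 32 genes, spread over the whole scale. Of these, 10 (17.2%) lay in the top 10% and 15 (25.9%) above bioB. Those at the top were the kinesin-13 depolymerases Kif2c (1.87 ± 0.10) and Kif2a (1.82 ± 0.13), which take microtubules apart, and the kinesin-2 motor subunits Kif3a (1.76 ± 0.077) and Kif3b (1.75 ± 0.12), which carry material toward the flagellar tip. These 4 means lay within 0.12 of each other, about the spread between arrays. Kif18a, a kinesin-8 of the mitotic spindle, was lowest by gene at -0.27 ± 0.13.

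Among the tubulins, Tubb4b had the highest Control score of all 106 probe sets, 3.82 ± 0.020. The next beta tubulin, Tubb2a, averaged 1.46 ± 0.25, followed by Tubb1, known from platelets, at 0.79 ± 0.12, Tubb4a at 0.75 ± 0.12, and Tubb6 last at -0.032 ± 0.076. Both alpha tubulins measured alone scored high, Tuba4a at 2.49 ± 0.083 and Tuba8 at 2.43 ± 0.12, a gap smaller than either SD. Gamma tubulin itself, Tubg1, averaged 2.02 ± 0.10. The ring-complex proteins that hold it scored lower, from 1.11 ± 0.091 for Tubgcp2 through 0.15 ± 0.032 for Tubgcp6 and 0.10 ± 0.029 for Tubgcp4 to -0.025 ± 0.12 for Tubgcp3.

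The promoters of these 2 leading beta tubulin genes are printed because they differ in the motifs they hold. Each is the 250 bases before the transcription start from RefSeq (GRCr8), with capitals for any match, on either strand, to TATAAA (the TATA box), CCAAT, TGACGTCA (the cAMP response element) or GTTGCC (a core of the X-box bound by RFX ciliary regulators). Tubb4b lies at chr3:28438456-28438705 on the minus strand and Tubb2a at chr17:31001936-31002185 on the plus strand.
Tubb4b: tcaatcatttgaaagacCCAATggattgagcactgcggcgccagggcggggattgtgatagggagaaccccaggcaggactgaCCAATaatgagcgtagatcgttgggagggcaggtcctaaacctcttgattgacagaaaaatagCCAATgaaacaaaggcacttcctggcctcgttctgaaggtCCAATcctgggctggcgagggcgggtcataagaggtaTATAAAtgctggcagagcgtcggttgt
Tubb2a: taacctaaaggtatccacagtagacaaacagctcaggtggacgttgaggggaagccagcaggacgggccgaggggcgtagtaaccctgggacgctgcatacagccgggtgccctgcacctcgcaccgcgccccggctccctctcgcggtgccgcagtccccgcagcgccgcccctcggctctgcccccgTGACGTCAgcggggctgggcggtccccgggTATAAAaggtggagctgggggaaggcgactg
Both hold TATAAA, at -27 in Tubb4b and -31 in Tubb2a. Tubb4b has 4 CCAAT matches and no TGACGTCA, and Tubb2a has TGACGTCA at -61 and no CCAAT.

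Promoters were found for 61 of the 70 genes, 63 promoters in all. TATAAA stood in 8 of the 63 (12.7%), against 12.9% of all 33469 promoters in the table. CCAAT stood in 26 (41.3%, against 34% of all), with 6 of them among the 8 beta tubulin promoters. Tubb1 and Kif2c have a pair of promoters each, and those of Tubb1 are 2 bases apart, so counted by gene CCAAT stood in 25 of 61 (41%) and in 5 of 7 beta tubulin genes. GTTGCC stood in 10 (15.9%, against 9.89%) and TGACGTCA in 3 (4.76%, against 1.59%). The member promoters were richer in G and C, with a median of 61.6% against 51.2% of all, and a median of 17 CpG against 5. A match describes letters in a window, not a bound site.

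No dynein, kinesin or tubulin probe set was called in any exposed group. By limma with Benjamini-Hochberg adjustment over 31042 probe sets, 0 of 106 were called (adjusted p under 0.05) in any of the 6 exposed groups against Control, where 0% of all probe sets were called, save 0.00644% in T1800. At an unadjusted p under 0.05 there were 4 members in M500 (3.77%, against 9% of all probe sets), 2 in M2000 (1.89% against 1.7%), 2 in P500 (1.89% against 3.36%), 2 in P2500 (1.89% against 4.15%), 8 in T500 (7.55% against 7.62%) and 1 in T1800 (0.943% against 5.84%). The animal numbers of the labels form 2 series, which split Control (3 and 3 arrays) and T1800 (1 and 3). With that series as a block, and within each series where both groups had arrays, 0 members were called as well. The median difference of the 106 lay between -0.025 in T1800 and 0.013 in P500. The median 95% half-width of a member's difference ran from 0.095 to 0.11 score units, which is the precision these numbers of arrays gave for a typical member.

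**Figure D2:**
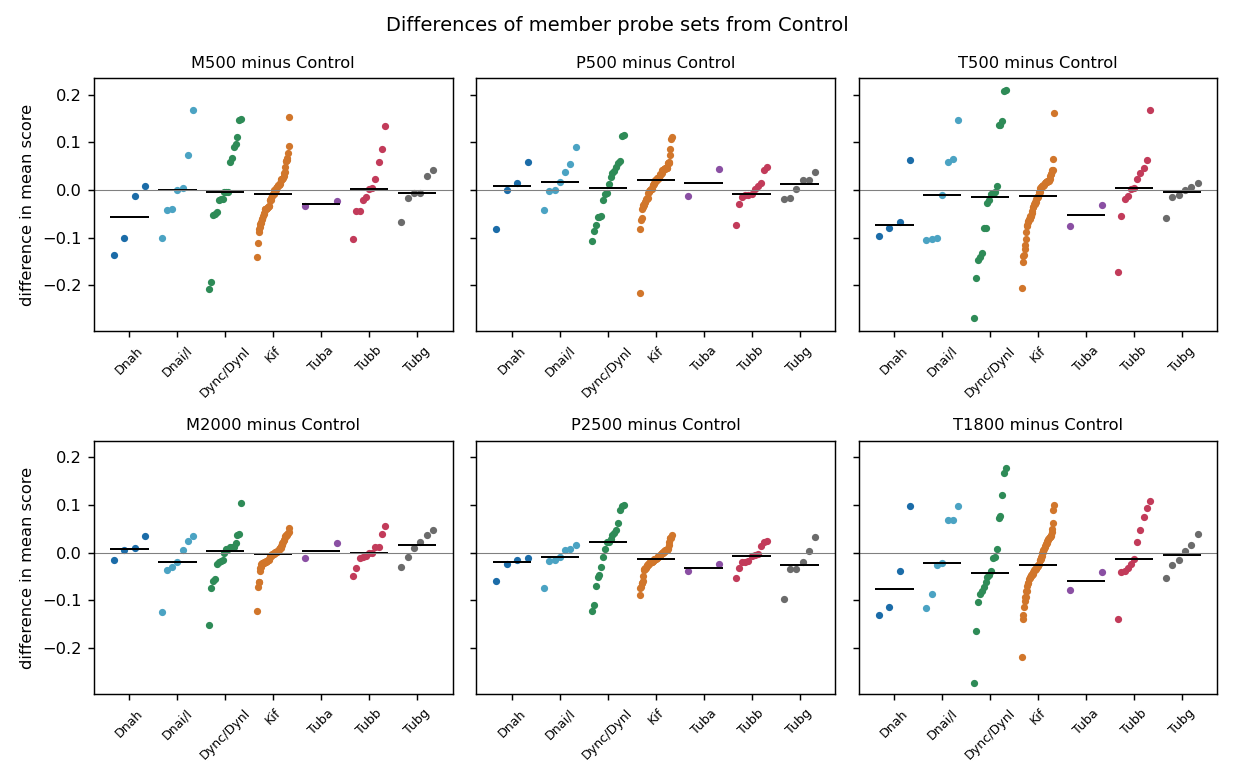
Difference in mean score from Control for the 106 probe sets (points) in each exposed group, by family, with the family median (bars). The points reach from -0.27 to 0.21 score units, both in triadimefon groups, and none passed the threshold. The family medians lie near 0.

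By family, the 42 median differences (7 families, 6 groups) were mostly negative in T1800 (7 of 7 families), M500, P2500 and T500 (6 of 7 in each), while 1 of 7 was negative in P500 and 3 of 7 in M2000. On the scores as deposited all 7 were negative in M2000, P500, P2500 and T1800 and 0 in M500. Without the 5 arrays of wide actin gap 5 of 7 were negative in T1800 and 2 of 7 in M500. The heavy chains of axonemal dynein had medians of -0.057 in M500, 0.0078 in M2000, 0.0072 in P500, -0.020 in P2500, -0.075 in T500 and -0.077 in T1800, from 4 probe sets. The kinesins had medians between -0.027 in T1800 and 0.020 in P500. Of the 42 medians, 17 changed sign on the scores as deposited, and 17 changed sign without the 5 arrays of wide actin gap.

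In myclobutanil groups, the members of smallest p in M500 were the heavy chain of dynein-1 and a kinesin-8. Dync1h1 scored 1.79, 1.63 and 1.67 in M500, against 1.80 to 2.10 (median 1.85) in Control. The difference was -0.19 ± 0.054 (SE, limma's adjusted p = 0.228). The groups did not overlap, but the mean difference was 0.0091 on the scores as deposited. Kif18b, a kinesin-8 of dividing cells, scored 1.01, 0.96 and 0.95 in M500, against 1.03 to 1.17 (median 1.13) in Control, a difference of -0.14 ± 0.054 (adjusted p = 0.398) that was -0.058 as deposited. These were the 2 members (1.89%, against 0.889% of all) that lay below Control on every M500 array, and 0 (against 1.12%) lay above on every array. In the other direction Tubb1 averaged 0.93 ± 0.096 in M500 and 0.79 ± 0.12 in Control (adjusted p = 0.509). A probe set of Kif5a, a kinesin-1 heavy chain, averaged -0.20 and -0.24 (adjusted p = 0.575). The Tubb1 difference was 0.075 without the 5 arrays of wide actin gap, in place of 0.13.

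In M2000 the same Control arrays gave smaller differences. Kif18b averaged 1.04 ± 0.034 in M2000 and 1.12 ± 0.054 in Control, and a Kif2a probe set 0.62 ± 0.033 and 0.68 ± 0.097. A probe set of Kif3c, a further kinesin-2 motor subunit, differed by 0.053 ± 0.025 (SE) and a Tubgcp4 probe set by 0.038 ± 0.018 (SE). All 4 had an adjusted p of 1. Leaving out the 5 arrays of wide actin gap, the Kif18b difference was -0.048 in place of -0.073, that of Kif2a -0.024 in place of -0.061, and that of Tubgcp4 0.022 in place of 0.038. No member lay above (0.087% of all) or below (0.0677%) Control on every M2000 array.

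In propiconazole groups, the dynein-2 heavy chain had the smallest p of the members that lay higher than Control, in P500 and in P2500. Dync2h1 scored 1.92, 1.98, 1.96 and 1.95 in P500, against 1.79 to 1.88 (median 1.84) in Control (difference 0.12 ± 0.041, SE, limma's adjusted p = 1). On the scores as deposited that difference was 0.010. It was the only member above Control on every P500 array (0.943%, against 0.441% of all), and 0 (against 0.235%) lay below. In P2500 it scored 1.87 to 2.04 (median 1.89) and overlapped Control, with a difference of 0.090 ± 0.038 that was -0.025 on the scores as deposited. Both comparisons use the same Control arrays. Kif3a averaged 1.87 ± 0.055 in P500 and 1.76 ± 0.077 in Control. For 1 of the 3 probe sets of its partner Kifap3, the non-motor subunit of kinesin-2, these means were 1.27 ± 0.25 and 1.49 ± 0.16. The other Kifap3 probe sets averaged 1.66 and 0.71 in Control, close to their P500 means, which are given below beside T500. The Kif3a difference was 0.11, and 0.019 as deposited. Kif18b differed by -0.082, and by -0.13 as deposited. Without the 5 arrays of wide actin gap, 1 member was called in P500, a Kif3b probe set with a difference of 0.13 (limma's adjusted p = 0.0464). The share of all probe sets called under that setting is not set beside it. With all arrays kept, the other Kif3b probe set had medians of 1.775 in P500 and 1.7725 in Control.

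The smallest p of all members in P2500 was that of Tubgcp2, which averaged 1.02 ± 0.073 in P2500 and 1.11 ± 0.091 in Control (adjusted p = 0.8). The dynein-2 intermediate chain Dync2i2 averaged 1.51 ± 0.074 and 1.63 ± 0.16 (adjusted p = 1). Without the 5 arrays of wide actin gap their differences were -0.0090 and -0.048, in place of -0.097 and -0.12. Tubgcp4 differed by 0.032 ± 0.018 (SE). No member lay above (0.113% of all) or below (0.161%) Control on every P2500 array.

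In triadimefon groups, the members of smallest p in T500 were a beta tubulin and a dynein light chain on the higher side, and a kinesin-8 and the dynein-1 heavy chain on the lower. Tubb1 scored 0.92, 0.88, 1.03 and 0.999 in T500, against 0.59 to 0.94 (median 0.83) in Control (difference 0.17 ± 0.056, SE, limma's adjusted p = 0.561). Dynlt1 averaged 2.94 ± 0.082 in T500 and 2.80 ± 0.13 in Control (adjusted p = 0.596). Kif18b averaged 0.96 ± 0.15 and 1.12 ± 0.054 (adjusted p = 0.556), and its T500 arrays scored 1.09, 1.09, 0.80 and 0.87. Dync1h1 averaged 1.76 ± 0.11 and 1.89 ± 0.11 (adjusted p = 0.577). The Tubb1 difference was 0.098 and that of Dynlt1 0.055 without the 5 arrays of wide actin gap, 2 of them Control, in place of 0.17 and 0.14. No member lay above (0.731% of all) or below (0.486%) Control on every T500 array.

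In T1800 the 2 members of smallest p in each direction had an adjusted p of 0.767 by limma. The light chain Dynlrb1 averaged 0.86 ± 0.041 in T1800 and 0.69 ± 0.21 in Control, and a Tubb5 probe set 0.84 ± 0.021 and 0.73 ± 0.11. Dnai7 averaged 1.28 ± 0.060 and 1.39 ± 0.10, and Kifc3, a minus-end kinesin, 0.68 ± 0.053 and 0.81 ± 0.16. Without the 5 arrays of wide actin gap the 4 differences were 0.040, 0.065, -0.059 and -0.026. Only a Kif2c probe set lay above Control on every T1800 array (1.943 to 1.973, against 1.664 to 1.940). That is 0.943% of members against 1.13% of all probe sets, and 0 (against 0.815%) lay below. The other Kif2c probe set had medians of 0.585 in T1800 and 0.632 in Control.

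The 3 compounds were then compared at the 1 dose they share, 500 ppm, as 3 pairs. No member was called in any pair by limma (0% of all probe sets in each). At an unadjusted p under 0.05 there were 12 members between M500 and P500 (11.3%, against 7.48% of all), 3 between M500 and T500 (2.83% against 6.69%) and 16 between P500 and T500 (15.1% against 5.08%). Between M500 and P500, Dync1h1 averaged 1.70 ± 0.086 in M500 and 1.93 ± 0.013 in P500, a difference of -0.23 (95% interval -0.35 to -0.11, adjusted p = 0.322) that was 0.10 on the scores as deposited. The Kifap3 probe set named for P500 averaged 1.64 ± 0.064 in M500 and 1.27 ± 0.25 in P500, a difference of 0.37 (0.094 to 0.64, adjusted p = 0.528) that was 0.63 as deposited. Between M500 and T500, a Kif3c probe set differed by 0.13 (0.034 to 0.22, adjusted p = 0.727) and a Kif16b probe set by -0.11 (-0.21 to -0.012, adjusted p = 0.733), and without M500 replicate 04 those differences were 0.035 and -0.027. Members above the other group on every array numbered 4 (3.77%, against 2.86% of all) and below it 5 (4.72% against 3.11%) for M500 against P500. For M500 against T500 they numbered 5 (4.72% against 2.91%) and 2 (1.89% against 2.52%).

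Between P500 and T500, the smallest p in each direction was that of a kinesin-2 subunit, Kif3a higher in P500 and Kifap3 lower. Kif3a scored 1.83, 1.85, 1.85 and 1.95 in P500, against 1.71, 1.70, 1.61 and 1.71 in T500, a difference of 0.19 (95% interval 0.094 to 0.28, adjusted p = 0.673, limma). Kifap3, by 1 of its 3 probe sets, scored 1.61, 1.26, 1.24 and 0.99 in P500, against 1.61, 1.62, 1.70 and 1.66 in T500, a difference of -0.38 (-0.63 to -0.12, adjusted p = 0.876). The groups did not overlap for either, although the highest P500 array and the lowest T500 array of Kifap3 both scored 1.61. Of the other members without overlap, Dynlrb2 (-0.244), Dynlrb1 (-0.217) and Dnai1 (0.194) differed by more than Kif3a (0.188). Other probe sets of these genes lay closer: the second of Kif3a averaged 1.08 in P500 and 1.07 in T500, and the other 2 of Kifap3 averaged 1.65 and 0.72 in P500 and 1.58 and 0.72 in T500. In all, 12 members (11.3%, against 4.07% of all) lay higher in every P500 array than in every T500 array, and 6 (5.66%, against 3.16%) lower.

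The actin gap differed between these groups as well, at 1.14 ± 0.213 in P500 and 0.790 ± 0.0748 in T500. For each of the 18 probe sets that did not overlap, the slope on the gap, which was fitted within groups, had the sign of the difference. Over all 106 members the signs matched for 79. With the gap as a covariate the Kif3a difference was 0.15 and that of Kifap3 -0.20. Without the 5 arrays of wide gap, none of which is a P500 or T500 array, 7 members were called (6.6%, against 2.18% of all): Kif3a, Kif3b, Kif3c, the dynein-2 intermediate chain Dync2i1, Kifbp and Dync1h1 higher in P500, and Kifap3 lower. Those genes, and the 3 that differed by more than Kif3a, were named after their values were seen. Kif3b and Kif3c were each called by 1 of 2 probe sets. The other of Kif3b had medians of 1.775 in P500 and 1.8045 in T500, and that of Kif3c -0.111 and -0.107. Whether the compounds or the gap set these differences was not tested.

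High and mid dose of a compound were also compared, and no member was called by limma (0% of all probe sets for myclobutanil and propiconazole, 0.00322% for triadimefon). For myclobutanil, Dync1h1 averaged 1.87 ± 0.044 in M2000 and 1.70 ± 0.086 in M500. Its difference was 0.17 (95% interval 0.054 to 0.28, adjusted p = 0.45), and -0.22 on the scores as deposited. A Kif5a probe set differed by -0.051 (adjusted p = 0.514). For propiconazole, a Kif3b probe set averaged 1.70 ± 0.030 in P2500 and 1.81 ± 0.065 in P500 (difference -0.11, -0.20 to -0.018, adjusted p = 1). The Kifap3 probe set named for P500 differed by 0.16 (-0.086 to 0.40, adjusted p = 1). For triadimefon, a Tubb6 probe set differed by 0.041 and another Kif5a probe set by -0.094 between T1800 and T500, both with an adjusted p of 1. The Kif5a probe set named for myclobutanil had medians of -0.231 in T1800 and -0.237 in T500. The other Tubb6 probe set had medians of 0.019 and 0.018. At an unadjusted p under 0.05 there were 5 members (4.72%, against 7.55% of all) for myclobutanil, 3 (2.83% against 3.83%) for propiconazole and 0 (against 1.97%) for triadimefon. Members higher on every high-dose array numbered 2 (1.89%, against 1.61% of all) for myclobutanil, 0 (against 0.409%) for propiconazole and 2 (1.89% against 2.23%) for triadimefon. Those lower on every array numbered 1 for each compound (0.943%, against 1.98%, 0.809% and 2.23%).

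Far more members were called on the actin gap than in any comparison of groups. In a limma model with a mean per group and a slope on the gap, 80 of the 106 members (75.5%) were called, 48 with a positive and 32 with a negative slope, against 57.1% of all probe sets (28.5% positive and 28.6% negative). Among probe sets with a mean above 0 the member share was 75%, against 69.9% of all. On the scores as deposited 71 members were positive and 12 negative, so that 85.5% of member calls were positive in place of 60%. Over all probe sets the share of calls that were positive moved likewise, to 82.6% as deposited in place of 49.9%. Without the 5 arrays of wide gap 26 members were called (24.5%, against 14.9% of all), 19 positive and 7 negative. By family, 49 of 58 kinesin probe sets (84.5%) were called, 13 of 18 of cytoplasmic dynein (72.2%), 6 of 7 of the axonemal intermediate and light chains, 7 of 11 of beta tubulin, and 1 of 6 of gamma tubulin and its complex.

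**Figure D3:**
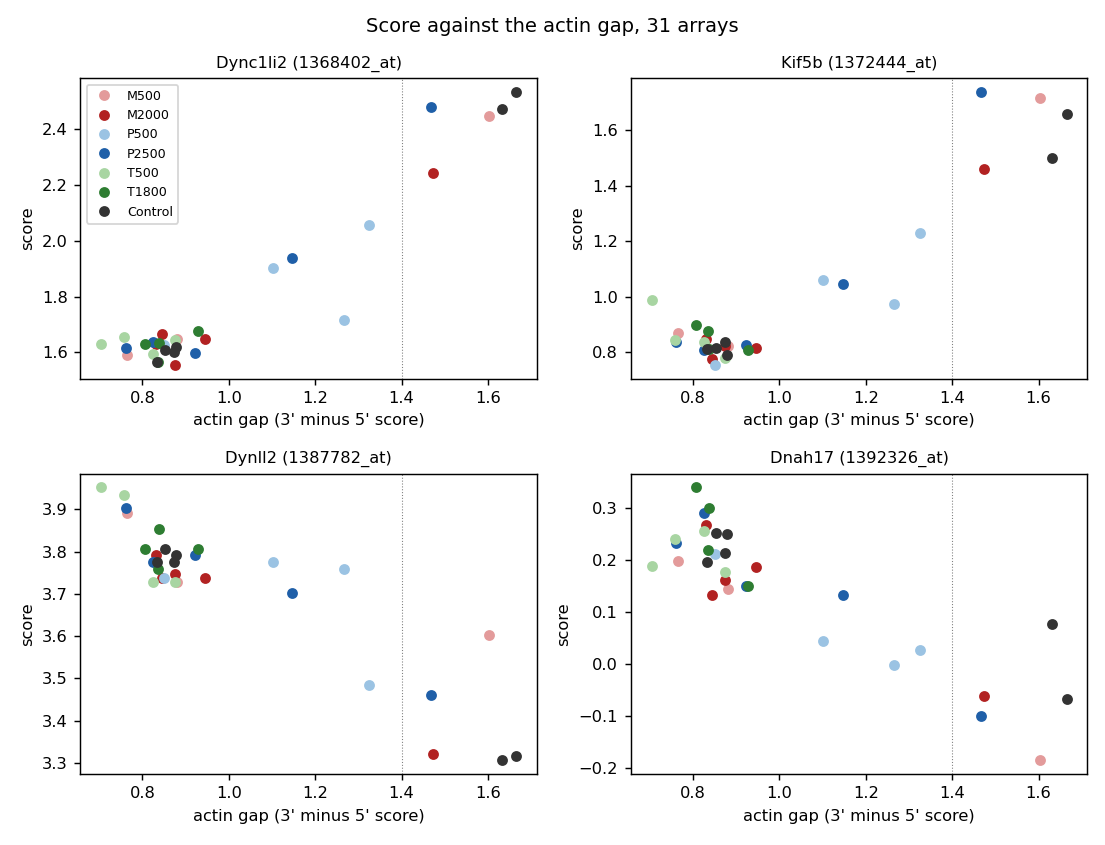
Score of 4 probe sets (y axes) against the actin gap of the array (x axes, 3' minus 5' beta-actin score), 1 point for each of the 31 arrays, coloured by group. The dotted line marks a gap of 1.4. Dync1li2 and Kif5b lie higher on all 5 arrays right of the line than on any other, and Dynll2 and Dnah17 lie lower on most.

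The steepest slopes belonged to a dynein-1 subunit and a kinesin-1 heavy chain. Dync1li2, a light intermediate chain of dynein-1, scored 2.24 to 2.53 (median 2.47) on the 5 arrays of wide gap, against 1.56 to 2.06 (median 1.63) on the other 26, with no overlap and a slope of 1.08 ± 0.060 score units per unit of gap (SE, adjusted p = 6.06e-14). Within Control the 2 arrays of wide gap scored 2.53 and 2.47 and the other 4 between 1.56 and 1.62. One Kif5b probe set scored 1.46 to 1.74 (median 1.66), against 0.75 to 1.23 (median 0.83), also with no overlap (slope 1.02 ± 0.072, adjusted p = 3.84e-12). The dynein-1 intermediate chain Dync1i2 had a slope of 0.44 ± 0.032 (limma's adjusted p = 6.7e-12). A probe set of Kif26b, an unusual kinesin, had 0.28 ± 0.024 (adjusted p = 8.86e-11). Of the 4 Kif26b probe sets 2 were called, both positive, and the lowest slope of the 4 was 0.018.

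In the negative direction, Dynll2 scored 3.31 to 3.60 (median 3.32) on the arrays of wide gap, against 3.48 to 3.95 (median 3.78) on the others. Its slope was -0.53 ± 0.051 (SE, adjusted p = 1.01e-09, limma), but 0.77 on the scores as deposited (adjusted p = 0.00169). Dnah17 scored -0.18 to 0.076 (median -0.067), against -0.0013 to 0.34 (median 0.20), with a slope of -0.38 ± 0.037 (adjusted p = 1.57e-09). A probe set of Kif1a, a carrier of synaptic vesicle precursors in neurons, had a slope of -0.24 ± 0.028 (adjusted p = 3.2e-08). Of the 3 Kif1a probe sets 2 were called negative and 1 positive, with slopes up to 0.063. Dynlrb1 had a slope of -0.45 ± 0.055 (adjusted p = 6.69e-08), which was -0.12 as deposited (adjusted p = 0.052). Of the 32 negative calls, 12 were negative, 6 positive and 14 not called on the scores as deposited. Of the 48 positive calls, 47 were positive there.

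Spermatid and spermatogonium markers were mostly lower on arrays of wide gap, and spermatocyte markers were not. The mean of 11 spermatid markers ran from 3.49 to 3.68 (median 3.58) on the 5 arrays of wide gap, against 3.65 to 3.83 (median 3.81) on the others, with 8 of the 11 slopes negative at the threshold and 1 positive. The 5 spermatogonium markers measured ran from 0.19 to 0.29, against 0.35 to 0.51, all 5 negative. The 6 spermatocyte markers ran from 2.05 to 2.24 (median 2.22), against 1.95 to 2.22 (median 2.08), with 2 slopes positive at the threshold and 1 negative. The 9 Sertoli cell markers split into 4 positive and 5 negative. Of 6 macrophage markers 4 were negative and 1 positive, and the 2 erythrocyte markers were negative. The 3 endothelium markers were positive, and of 5 peritubular markers 3 were positive and 1 negative. At the same threshold 28.5% of all probe sets were positive and 28.6% negative. The part of these cell types in the motor genes' slopes was not tested.

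Probe sets of 1 gene often moved in opposite directions with the gap. Among the 23 genes with more than 1 probe set, 18 had at least 2 called on the slope, and in 16 of those (88.9%) calls went both ways, against 55.4% of 2349 other such genes. For genes with exactly 2 called, it was 9 of 11 (81.8%, against 50.3% of 1781). On the scores as deposited it was 7 of 14 member genes. Other genes were not counted in that setting, where 82.6% of all calls were positive. Kif5b had slopes of 1.02 and -0.21, Dynll2 0.36 and -0.53, Kifap3 from -0.50 to 0.35, and Kif23, a kinesin of cell division, 0.36 and -0.15. The Control scores of a gene's probe sets were furthest apart in Dynll2 (3.63 and 1.24), the dynein-1 light intermediate chain Dync1li1 (1.71 and 0.037), Dnali1 (1.82 and 0.16) and Kif2c (1.87 and 0.64). Of these 4 genes, Dync1li1 had no probe set called on the slope, and the other 3 had calls both ways.

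**Figure D4:**
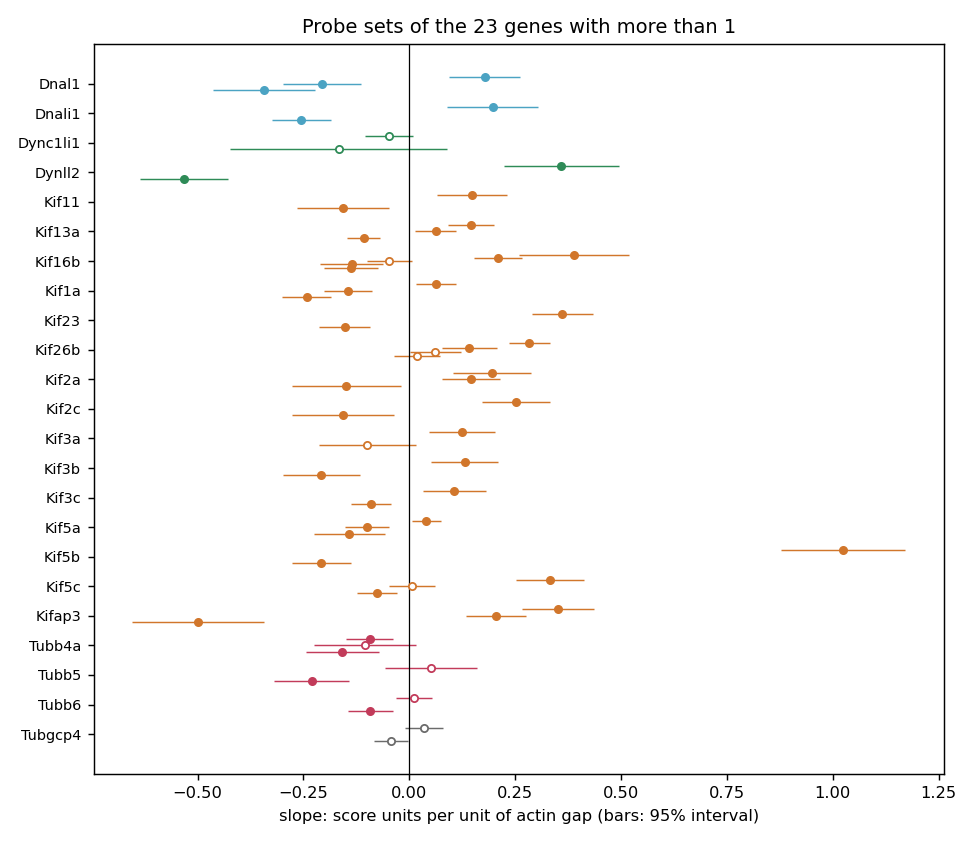
Slope on the actin gap, in score units per unit of gap with its 95% interval (bars), of each probe set of the 23 genes with more than 1 probe set. Filled points passed the threshold and open ones did not. In 16 genes filled points lie on both sides of 0.

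Companion genes of the same machinery were measured beside them. They were 134 probe sets of 85 genes, from lists of dynactin and dynein cofactors, axoneme assembly and docking, kinesin light chains and adaptors, the gamma tubulin ring, tubulin folding and modification, and microtubule binding and severing. None was called in any exposed group against Control, and 86 (64.2%, against 57.1% of all) were called on the gap, 46 positive and 40 negative. Closest to the threshold in M500 were the microtubule-binding Map4, at 1.17 in M500 and 1.36 in Control (difference -0.19 ± 0.049, SE, adjusted p = 0.185), and Dctn1, the large dynactin subunit, at 1.29 and 1.55 (-0.25 ± 0.070, adjusted p = 0.224). Map4 also had the smallest p in T500, at 1.16 in T500 and 1.36 in Control (adjusted p = 0.521), from the same Control arrays. On the gap, the plus-end binder Mapre1 had a slope of -0.81, Ckap5, which promotes microtubule growth, 0.81, and the severing enzyme Spast 0.61.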

How the data were processed

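The authors deposited 1 table of 31099 probe sets whose values are scores on a log-like scale. The summary and normalization behind them are not given in the sources used here. TRI Reagent extraction, oligo-dT priming and biotin cRNA labelling are stated in the labels' protocols. Groups and replicates came from the labels.

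Scores were quantile normalized, 57 array controls dropped and 31042 probe sets tested in R 4.3.3 with limma 3.58.1 (lmFit, eBayes, 1 mean per group over 31 arrays, Benjamini-Hochberg, threshold 0.05). Every adjusted p comes from limma. The scripts were tested on simulated data. The platform annotation, which can be old, named 20826 probe sets by 1 symbol, and all 106 member symbols stood in RefSeq. The number of arrays limits the precision.

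Named were the 4 highest genes and the lowest of each family by Control mean, the 2 smallest p in each direction against Control (1 in the other comparisons), the 4 smallest p in each direction on the gap, and the 4 genes with probe sets farthest apart. Members and lists were chosen with earlier results of these data known. Alternatives were the deposited scores, array weights, filters, covariates, blocks and arrays left out. For deviations of same-numbered arrays the median correlation was 0.0388 (-0.768 to 0.775), against 0.0372 for other numbers (-0.731 to 0.765). Such medians cannot exclude a shared litter or block, and the main model paired no animals.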

Additional observations from a re-analysis of the deposited data

Results flagged for a closer look

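Of 78 sets of values tested for 1 array far from the rest of its group, 9 were found; chance gives about 1 in 20. Of these 9, 8 were on arrays with an actin gap above 1.4.

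On Control replicate 06 the beta tubulin median was 0.35 (others 0.57 to 0.64), Dynlrb2 scored 2.13 (2.44 to 2.62) and Dync2li1 2.44 (2.17 to 2.24). On Control replicate 02, Kif2c scored 1.66 (1.88 to 1.94), Kif3b 1.53 (1.74 to 1.86), Tuba4a 2.65 (2.42 to 2.47) and Tubgcp3 -0.25 (-0.019 to 0.057). The median of all 106 members was 0.63 on M2000 replicate 05 (0.49 to 0.51). It was 0.52 on T500 replicate 01 (0.48 on the others), whose actin gap was 0.875.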

How the results depend on the processing

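Counts of members called were 0 in every group comparison under most alternatives. They were 1 for P500 against Control (Kif3b), 7 for P500 against T500 and 1 for P2500 against P500 (Kif3b) without the arrays of actin gap above 1.4. With array weights they were 1 for T1800 against Control (Tubb5), 1 for P500 against T500 (Kif3a) and 2 for P2500 against P500 (Kif3a, Kif3b). That Tubb5 probe set, with means of 0.51 in T1800 and 0.44 in Control, was not the one named for T1800 above. On the scores as deposited the count was 1 for M2000 against M500 (Dnal1). The cause was not tested. The share of all probe sets called is not set beside the counts of this paragraph, so none is read as particular to the members. On the gap, 80 calls became 26 without the 5 wide-gap arrays, which removes most of the range of the gap, and 74 to 83 with any 1 array left out; leaving out 1 array kept every group count at 0. The Dynll2 slope was 0.77 as deposited, against -0.53. With the replicate number as a block, 81 members were called on the gap and 0 in each group comparison. Leaving out Control replicate 02 and M500 replicate 04, whose deposited scores reached 8.21 and 8.39 (others at most 5.78), was chosen after seeing the data and left 66 calls on the gap. Probe sets under bioB, 64 of the 106, have the least signal over background.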
